A study of Mus musculus with 3 samples.

Results

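Basement membrane and matrix glycoprotein genes were followed in mouse ES (embryonic stem) cells, which are pluripotent and come from the early embryo, over a Gata6 time course of days 0, 1 and 2. Gata6 is a zinc finger protein that binds DNA and directs the formation of primitive endoderm. The 10 genes were Col4a1, Col4a2, Col18a1, Nid1, Nid2, Sparc, Hspg2, Agrn, Fbln1 and Fn1, out of 18193 genes on the array. They were taken up by name, with every probe set that the platform annotation assigns to 1 of them alone, which gave 21 of 34945 such probe sets. A probe set is a group of short probes read together as 1 signal. The design text describes a genetic modification that makes Gata6 overexpression respond to dex, and the labels name day 0 as the control. Whether the control cells carried the modification is not stated in the labels. Each day has 1 array, so there are no replicates, no test between days is possible, and days cannot be told apart from cultures.

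A basement membrane is a thin sheet of extracellular matrix under epithelia. A laminin network and a collagen IV network are linked in it by nidogens and by heparan sulfate proteoglycans, and glycoproteins such as Sparc and the fibulins bind to it. In the mouse embryo, the primitive endoderm gives rise to parietal endoderm, whose cells lay down the thick Reichert's membrane, rich in laminin, collagen IV and nidogen. Fibronectin, by contrast, forms fibrils around cells and is bound by integrins.

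The arrays had median signals of 84.2 on day 0, 81.8 on day 1 and 86.4 on day 2. Signals under 54, the 40th percentile of all values and called the floor here, were set to it. Of the 21 probe sets, 19 lay above the floor on each of the 3 days, 1 for Fbln1 did so on 2 days, and 1 for Agrn lay below it throughout. Gata6 itself, on the probe set that stands for it, read 110, 5574 and 6070 on days 0, 1 and 2. All 10 listed ES cell markers, Pou5f1 and Nanog among them, were above the floor on day 0, and 9 of the 10 were at least 2-fold lower on day 1 and 10 on day 2. Of 12 listed primitive and parietal endoderm markers, 10 were at least 2-fold higher on day 1 and 12 on day 2. Over all genes compared with day 0, 6% were at least 2-fold higher and 6.58% lower on day 1. On day 2 these shares were 11% and 10.1%. Among visceral endoderm markers, 3 of 5 compared on day 1 passed 2-fold upwards and 1, Rbp4, passed it downwards. On day 2, 4 of 7 passed it upwards and 0 downwards. Rbp4 read 197, 89.1 and 149 on days 0, 1 and 2, and Afp lay below the floor throughout. The summed signal of that list was 958, 7166 and 31952 on days 0, 1 and 2, of which Cubn made up 5.30, 2542 and 20097. The only measure of error was the SD of a log2 ratio between probe sets of 1 gene. This SD was 0.49 where signals averaged under 200. It was 0.38 between 200 and 1000, 0.25 between 1000 and 5000, and 0.15 above that. It leaves out the spread between cultures.

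Sequences at or before the starts of 5 of the genes at least 2-fold higher or lower on day 2 are shown first, from RefSeq on build GRCm38.p6. Col4a1 and Col4a2 are neighbours that are transcribed away from each other. The annotated starts used here lie at the ends of a stretch of 22 bases, which runs downstream from both starts inside both annotated genes. The annotated genes overlap by 85 bases, and the 250 bases before each of these starts lie inside the annotated partner gene. The pair is known to share a promoter that works in both directions. The stretch from the Col4a2 start to the Col4a1 start, which holds GGGCGG once, is chr8:11312805-11312826, printed on the plus strand:
Col4a1-Col4a2: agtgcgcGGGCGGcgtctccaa
The 250 bases before the annotated start are given next for Nid1 and Sparc, which were higher on day 2, and for the outer start of Col18a1, which was lower. In all 4 sequences, capitals mark CCAAT or GGGCGG, or the same letters read on the opposite strand. Nid1 lies on the plus strand at chr13:13437352-13437601, Sparc on the minus strand at chr11:55420081-55420330 and Col18a1 on the minus strand at chr10:77166531-77166780:
Nid1: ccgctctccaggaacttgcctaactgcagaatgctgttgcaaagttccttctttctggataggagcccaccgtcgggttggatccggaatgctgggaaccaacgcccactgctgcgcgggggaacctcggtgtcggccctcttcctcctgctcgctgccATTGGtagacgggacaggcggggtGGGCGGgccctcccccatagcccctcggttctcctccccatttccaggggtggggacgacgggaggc
Sparc: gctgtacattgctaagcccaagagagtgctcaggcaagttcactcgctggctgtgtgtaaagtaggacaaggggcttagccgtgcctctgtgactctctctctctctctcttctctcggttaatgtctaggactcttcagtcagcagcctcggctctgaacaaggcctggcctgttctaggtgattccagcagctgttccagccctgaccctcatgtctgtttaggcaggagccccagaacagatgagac
Col18a1: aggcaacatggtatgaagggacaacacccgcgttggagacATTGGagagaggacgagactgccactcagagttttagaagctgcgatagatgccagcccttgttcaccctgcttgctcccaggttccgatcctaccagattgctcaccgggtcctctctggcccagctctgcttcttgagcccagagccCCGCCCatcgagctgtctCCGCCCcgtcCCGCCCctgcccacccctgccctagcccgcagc
There were 11 windows for 8 of the 10 genes, all but Nid2 and Fn1, with 2 windows each for Col18a1, Agrn and Fbln1, and the Fbln1 windows overlap. The letters GATAA, found in many GATA factor sites, were in 0 of the 11 windows on either strand. Of all 32851 promoter windows of the same length, 22.6% held them. TATAAA was also in 0 of the 11, against 12.4%. GATA followed by a letter other than A was not counted, and GATAG stands in the printed Nid1 and Col18a1 windows. CCAAT was in 4 of the 11, against 33.8%: it began 145 bases upstream of the Col4a1 start, 32 bases upstream of the Col4a2 start, 91 upstream for Nid1 and 210 upstream for Col18a1. GGGCGG was in 7 of the 11, against 32.7%, and the 11 windows had a GC content between 46.4% and 83.6%. Matches overlapped by 1 base at 1 place in an Agrn window, and no motif overlapped another. These counts describe letters in short windows at annotated starts. Binding was not measured, and the starts used in these cells are not known from arrays.

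**Figure D1:**
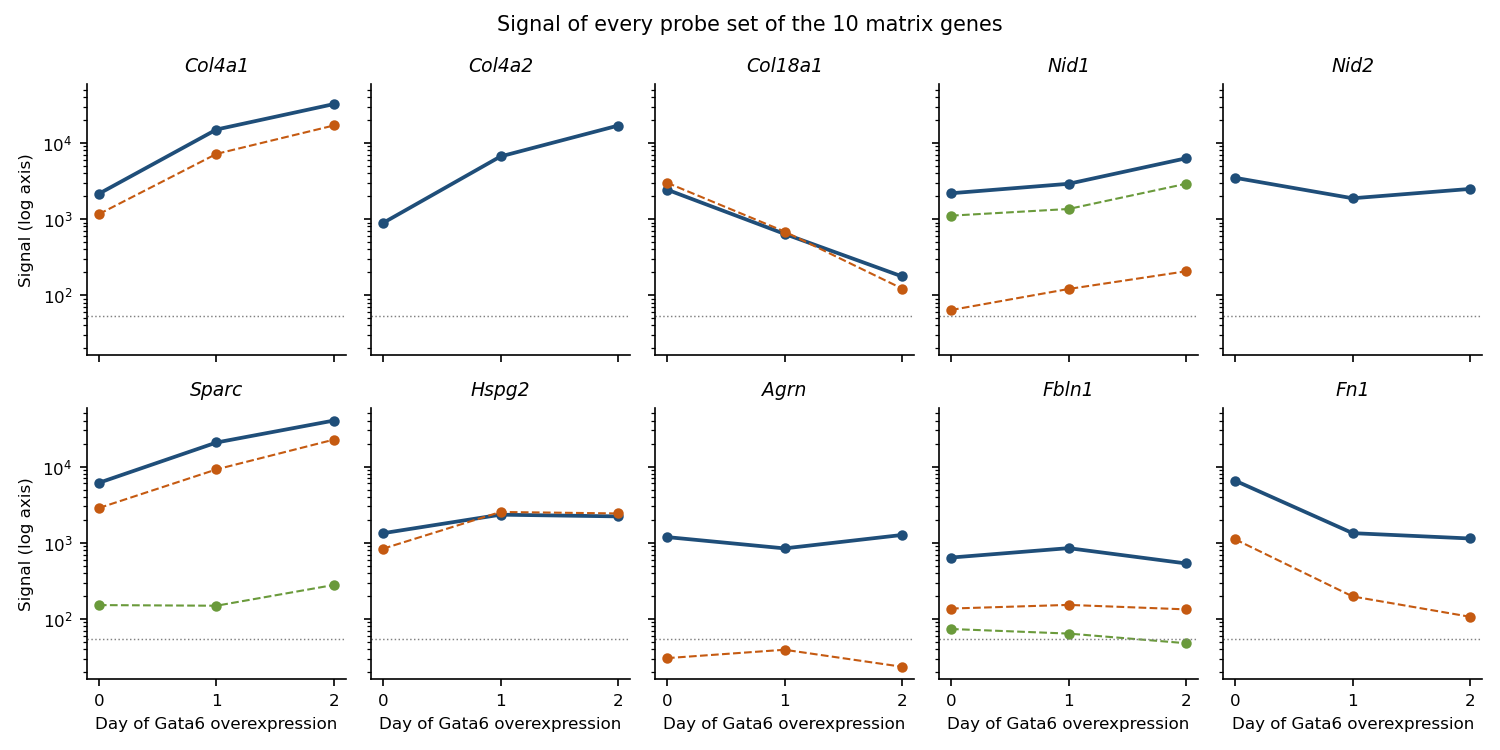
Signal of each of the 21 probe sets (log axis) against the day of Gata6 overexpression, 1 array per day, with a panel per gene. The solid line is the probe set that stands for the gene, dashed lines are its other probe sets, and the dotted line is the floor of 54; on the solid lines Col4a1, Col4a2, Sparc and Nid1 climb over the 3 days while Col18a1 and Fn1 decline.

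The comparison of day 1 with day 0 asks which of the 10 had departed from the control after the first day. Both collagen IV chains and Sparc were at least 2-fold higher on day 1, Col18a1 and Fn1 were at least 2-fold lower, and the other 5 genes differed less. Among all 13602 genes compared, 6% passed 2-fold upwards and 6.58% downwards. The median log2 ratio of the 10 genes was 0.41, and that of all genes compared was -0.04.

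The comparison of day 2 with day 0 asks the same after a further day. Nid1 had joined the higher genes, giving 4 higher, 2 lower and 4 within 2-fold. Of 13865 genes compared, 11% were higher and 10.1% lower, and the medians were 0.41 for the 10 genes and -0.05 for all. Their log2 ratios spanned -3.79 to 4.25, so the group did not move as a unit. In bulk RNA, fewer cells of a type and less RNA per cell cannot be told apart.

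**Figure D2:**
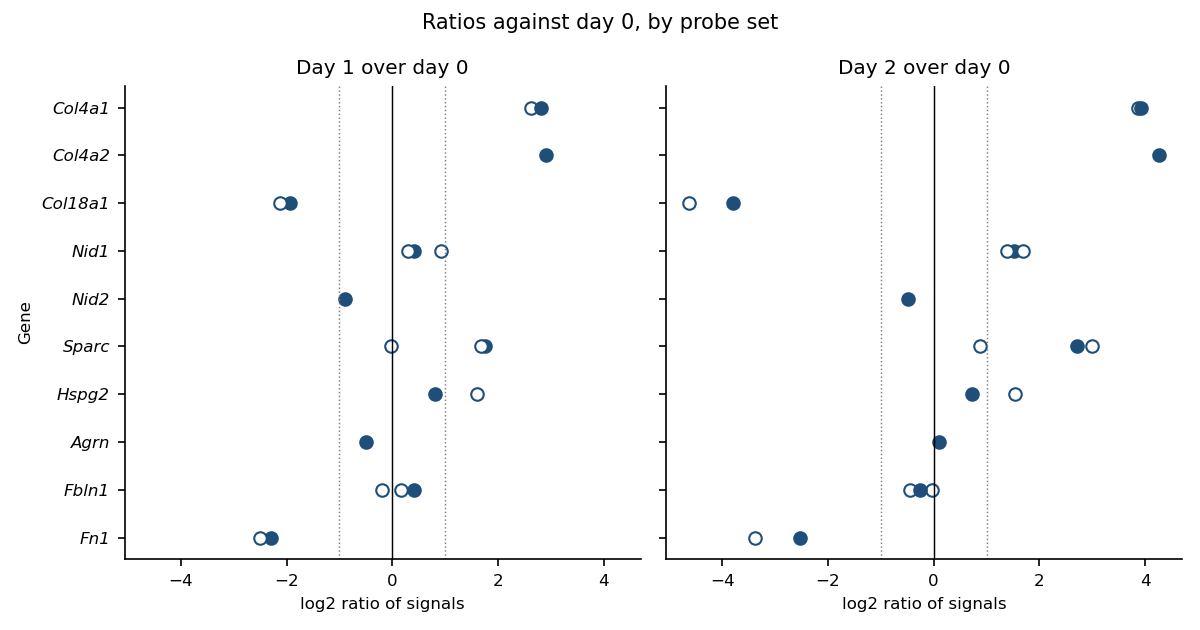
Log2 ratio of signals, day 1 over day 0 (left) and day 2 over day 0 (right), for each probe set above the floor on at least 1 day. Filled points are the probe set that stands for the gene, open points its other probe sets, and dotted lines mark 2-fold; the collagen IV chains lie near 4 and Col18a1 near -4 on day 2.

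Of the 10 genes, the collagen IV chains had the highest ratios against day 0 on both later days. Col4a1 encodes the alpha 1 chain of collagen IV, which assembles with the alpha 2 chain of Col4a2 into the triple helix common to nearly all basement membranes. The Col4a1 probe set that stands for the gene read 2147 on day 0, 14989 on day 1 and 32402.5 on day 2. It was 6.98-fold higher on day 1 and 15.1-fold higher on day 2, each against day 0. The second Col4a1 probe set read 1160.4, 7176 and 16972 on days 0, 1 and 2, which is 6.18-fold and 14.6-fold. The 2 probe sets therefore gave nearly the same course.

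Col4a2 has 1 probe set, which read 886 on day 0, 6640 on day 1 and 16887 on day 2. It was 7.50-fold higher on day 1 and 19.1-fold higher on day 2. Across the 3 probe sets of the pair, the log2 ratios against day 0 lay between 2.63 and 2.91 on day 1 and between 3.87 and 4.25 on day 2. Col4a2 stood at rank 63 and Col4a1 at rank 81 from the highest of 13865 genes on day 2. On the log2 scale, 71.6% of the Col4a1 difference and 68.3% of the Col4a2 difference were present on day 1. Day 2 over day 1, the pair was still 2.16-fold and 2.54-fold higher.

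The other 4 collagen IV chains, which form more restricted networks in kidney, muscle and other tissues, were dim on each array. Col4a3 and Col4a6 lay below the floor on all 3 days. Col4a4 read 41.4, 55.7 and 21.7 on days 0, 1 and 2, and Col4a5 read 72.3, 39.9 and 84.2. Values this close to the floor carry no order between days.

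Sparc encodes a secreted calcium-binding glycoprotein that binds collagen IV and is abundant in parietal endoderm. Its probe set read 6121 on day 0, 20721 on day 1 and 40302 on day 2, 3.39-fold higher on day 1 and 6.58-fold higher on day 2. A second probe set read 2856, 9185 and 22639, which is 3.22-fold and 7.93-fold. The third was far dimmer, at 152, 149 and 279, with log2 ratios of -0.03 on day 1 and 0.88 on day 2. That probe set read nearly the same on day 1 as on day 0, unlike the bright ones. As a mean over the 3 probe sets, the log2 ratio of Sparc was 1.14 on day 1 and 2.20 on day 2. Day 2 over day 1, the bright probe sets gave 1.95-fold and 2.46-fold, on either side of the 2-fold line.

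The 2 nidogens, which link laminin to collagen IV, did not run together. Nid1 read 2181 on day 0, 2904 on day 1 and 6286 on day 2. It was 1.33-fold higher on day 1 and 2.88-fold higher on day 2. Its other probe sets gave 1.22-fold and 1.89-fold on day 1, and 2.63-fold and 3.23-fold on day 2, where all 3 were past 2-fold. Of its log2 difference, 27.0% was present on day 1, against 20.9% and 54.3% on the other probe sets. It was 2.16-fold higher on day 2 than on day 1, and as a mean over its probe sets its log2 ratio there was 0.996, just inside 2-fold. Nid2 read 3483, 1874 and 2488 on days 0, 1 and 2, on the 1 probe set it has. Its log2 ratio was -0.89 on day 1 and -0.49 on day 2, within 2-fold both times. On these single arrays Nid2 read below its day 0 signal on both later days, and Nid1 above it, and the spread between cultures is not known.

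The heparan sulfate proteoglycan genes Hspg2 and Agrn stayed within 2-fold on the probe sets that stand for them. Hspg2 encodes perlecan, a large proteoglycan that binds laminin, nidogen and growth factors. It read 1333 on day 0, 2336 on day 1 and 2217 on day 2, 1.75-fold and 1.66-fold higher than on day 0. A second Hspg2 probe set, of the kind whose probes can match more than 1 transcript, read 833, 2536 and 2424, which is 3.04-fold and 2.91-fold. The 2 probe sets lay on either side of 2-fold, and their mean log2 ratio was 1.21 on day 1 and 1.14 on day 2. Both were level between the later days, with log2 ratios of -0.07 and -0.06 for day 2 over day 1.

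Agrn encodes agrin, a laminin-binding proteoglycan best known for clustering acetylcholine receptors at the neuromuscular junction. It read 1187 on day 0, 843 on day 1 and 1265 on day 2, with log2 ratios of -0.49 on day 1 and 0.09 on day 2. It stayed within 2-fold on both days, and single arrays cannot show whether the lower day 1 reading exceeds the spread between cultures. The second Agrn probe set read 30.5, 39.3 and 23.5, all below the floor, and could show no difference.

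Col18a1 had the widest difference of the lower genes on day 2, while Fn1 had it on day 1. It encodes collagen XVIII, a basement membrane collagen that carries heparan sulfate chains and whose C-terminal fragment is endostatin. The probe set that stands for it, also of the kind that can match more than 1 transcript, read 2437 on day 0, 638 on day 1 and 176 on day 2, 3.82-fold lower on day 1 and 13.8-fold lower on day 2. The second probe set read 3001, 686 and 122, which is 4.38-fold and 24.6-fold lower. Of their log2 difference, 51.0% and 46.1% were present on day 1. Col18a1 stood at rank 24 from the lowest of 13865 genes in day 2 over day 0. It was also the only 1 of the 10 at least 2-fold lower in day 2 over day 1, at 3.62-fold.

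Fn1 encodes fibronectin, a fibril-forming glycoprotein of the matrix around cells. It read 6547 on day 0, 1336 on day 1 and 1137 on day 2, 4.90-fold lower on day 1 and 5.76-fold lower on day 2. A second probe set read 1111, 197 and 106, which is 5.64-fold and 10.4-fold lower. The bright probe set had 90.8% of its log2 difference on day 1 and the other 73.8%. Day 2 over day 1, their log2 ratios were -0.23 and -0.89. Fn1 thus differed mostly on the first day, whereas Col18a1 differed by a similar step on each day.

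Fibroblast genes were read beside these values because fibronectin and Sparc are also made by fibroblasts, which ES cell cultures can hold as feeder cells. Of 13 listed fibroblast markers, 7 lay below the floor on all days, Col1a1, Col3a1, Postn and Dcn among them. The summed signal of the list was 11375, 14830 and 3786 on days 0, 1 and 2. Vim, an intermediate filament gene that many cell types express, made up 10566, 14327 and 3210 of it. The 6 measured markers did not share a course. Thy1 read 421, 75.4 and 50.5 and was, with Vim, lower on day 2 than on day 0, whereas Twist1 read 7.00, 88.9 and 112.6 and was at least 2.08-fold higher. Col1a2 read 84.8, 67.5 and 82.6. Endothelial markers, whose cells also make collagen IV, summed to 624, 536 and 564 over 8 genes, which moved in different directions. Esam was the brightest of them on each day, at 195, 286 and 248. Cdh5 read 6.20, 42.5 and 89.7, and Tek read 173, 70.0 and 66.2. The part of either cell type in the results was not tested.

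Fbln1 encodes fibulin 1, a calcium-binding glycoprotein that binds fibronectin and nidogen. It read 639 on day 0, 849 on day 1 and 534 on day 2, with log2 ratios of 0.41 on day 1 and -0.26 on day 2. The other probe sets were dim, at 137, 153 and 133, and at 73.6, 64.1 and 47.9. No Fbln1 probe set reached 2-fold in any comparison, and the 3 probe sets had different signs on day 1.

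The comparison of day 2 with day 1 covers the second day alone. Col4a1, Col4a2 and Nid1 were at least 2-fold higher and Col18a1 at least 2-fold lower. Of 13468 genes compared, 5.61% were higher and 3.67% lower. The median log2 ratio was 0.50 for the 10 genes and -0.01 for all. The 3 comparisons share arrays, so they are not independent of each other.

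**Figure D3:**
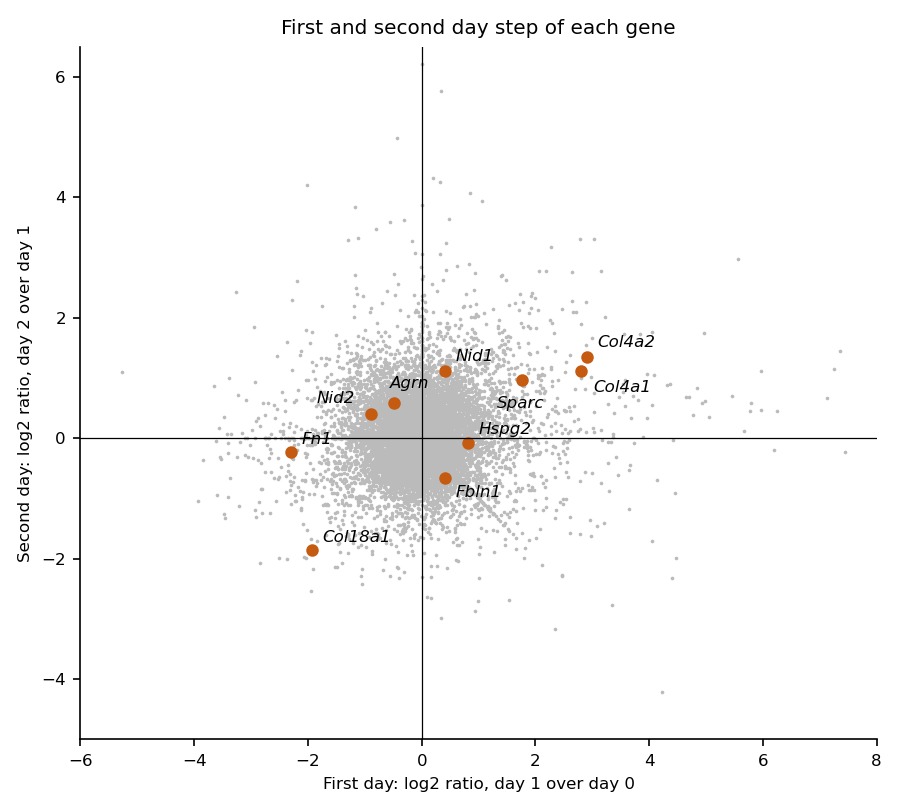
Log2 ratio of day 1 over day 0 (horizontal) against log2 ratio of day 2 over day 1 (vertical) for genes above the floor on at least 1 day (grey), with the 10 matrix genes in orange. Col4a1, Col4a2 and Sparc lie to the right and above 0, Nid1 lies further along the vertical than the horizontal axis, Fn1 mainly along the horizontal axis, and Col18a1 is low on both.

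The genes whose pair of log2 ratios against day 0 was nearest to that of a given member were looked up among 10914 genes above the floor on all 3 days. The measure was the Euclidean distance over 2 ratios, which rest on 3 arrays. For Col4a1 they were Tax1bp3 (distance 0.20), Gadd45g (0.24) and Lrp2 (0.28). Lrp2, which encodes the endocytic receptor megalin, read 733, 4263 and 10301 on days 0, 1 and 2. For Sparc they were Slc33a1 (0.06), Igf2 (0.06) and Sema4c (0.09). Igf2, a fetal growth factor, read 771, 2692 and 4914. For Fn1 they were Stmn3 (0.04), Icam1 (0.07) and Liph (0.09). Icam1, a leukocyte adhesion receptor, read 2073, 405 and 350.0.

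The other genes of the same matrix were read from lists of related function, and the counts are those at least 2-fold higher or lower in day 2 over day 0, to be read beside the 11% higher and 10.1% lower over all genes. Shares near these, such as 2 of 17 higher receptors or 1 of 10 lower pericellular proteins, are background. The 8 laminin chains compared held 4 higher and 0 lower ones, and their median log2 ratio was 0.91. Lamb1, Lama1 and Lamc1, the 3 chains of laminin-111, stood at 5.41, 4.10 and 3.05. In day 1 over day 0, 3 of 10 chains compared were already higher and 0 lower, against 6% higher and 6.58% lower over all genes.

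Of 10 other basement membrane and pericellular proteins compared, 5 were higher and 1 was lower (median 0.67). Pxdn encodes peroxidasin, which cross-links collagen IV, and read 125, 520.0 and 2280.1 on days 0, 1 and 2, 18.2-fold higher on day 2 than on day 0. Egflam, a dystroglycan ligand, was at least 8.20-fold higher on day 2, and Ntn1, which encodes netrin 1, at least 7.66-fold lower. Of 13 other matrix glycoproteins and fibre proteins, 0 were higher and 2 were lower (median -0.34). The lower genes were Tgfbi (6.27-fold), whose product binds collagens and integrins, and the microfibril gene Mfap5 (2.21-fold). Fbln5, a fibulin of elastic fibres, read 109, 111 and 54.7 on days 0, 1 and 2, just inside 2-fold. Of 8 other network and associated collagens compared, 0 were 2-fold higher or lower, and Col7a1 (0.59), Col5a2 (-0.41) and Col6a1 (0.36) had the widest ratios. Col7a1 read 64.1 on day 0 and 96.2 on day 2, Col5a2 71.6 and 49.2, and Col6a1 21.9 and 69.5, all close to the floor of 54. The ratios of Col5a2 and Col6a1 are at least this wide, since 1 signal of each lay below the floor. With an SD of 0.49 for signals under 200, these ratios show no clear order between days.

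Of 20 genes for collagen folding, hydroxylation and export, 10 were higher and 2 were lower (median 0.94). The collagen chaperone Serpinh1 stood at a log2 ratio of 6.15 and the prolyl hydroxylase subunit P4ha2 at 5.24. Pcolce, which enhances the cleavage of fibrillar procollagens, stood at -4.48. Of 17 receptors for these ligands, 2 were higher and 4 were lower (median -0.67). Bcam, a receptor for the laminin alpha 5 chain, was 16.9-fold lower, Itga1, a subunit of a collagen IV receptor, at least 3.20-fold lower, and the collagen receptor Ddr1 2.80-fold lower. Itga5, a subunit of the main fibronectin receptor, was named after its values were seen and read 459, 493 and 610.1 on days 0, 1 and 2. It stayed within 2-fold while Fn1 was lower.

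**Figure D4:**
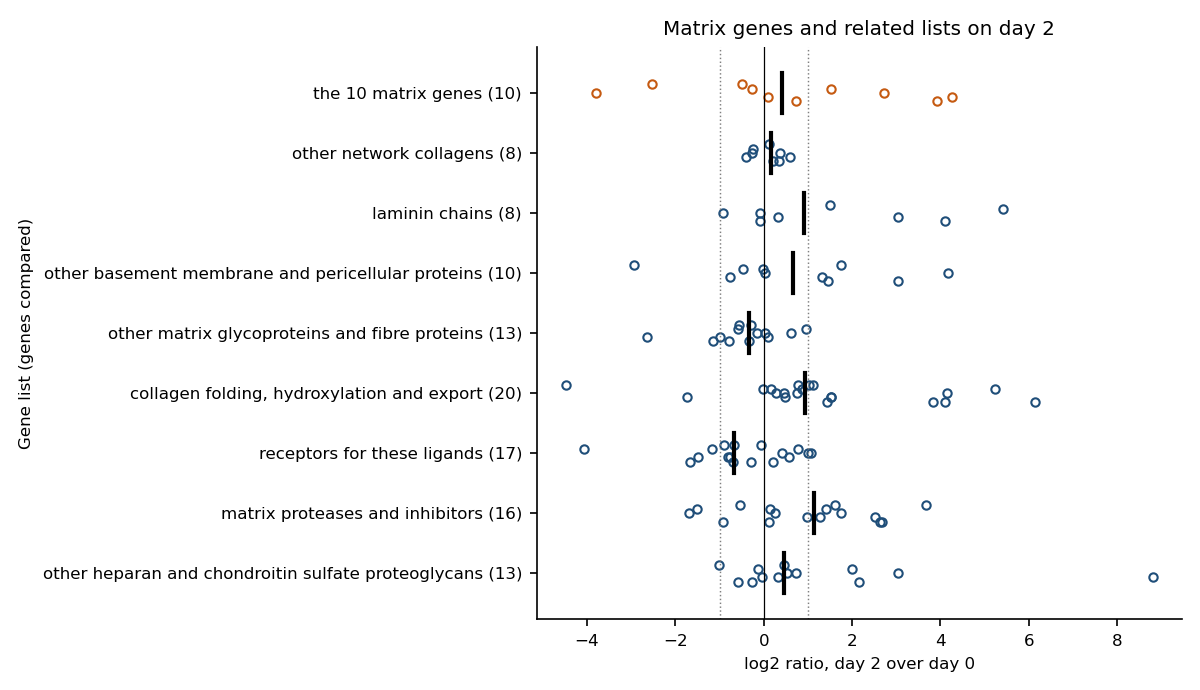
Log2 ratio of day 2 over day 0 for the 10 matrix genes (orange) and for genes on 8 related lists (blue), with the number compared in brackets. Each point is a gene, black bars are list medians and dotted lines mark 2-fold; the 10 matrix genes span -3.79 to 4.25 around a median of 0.41.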

How the data were processed

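The deposited values are linear signal intensity values per probe set, made by the authors with MAS5 per the submitters' processing notes, which name no version. The 2% trimmed means of the 3 arrays were nearly equal (497.5, 497.6 and 497.7 on days 0, 1 and 2), so the arrays had been scaled before deposit, to a target that no source used here states. There were 45101 probe sets, including 64 controls. Annotation gave 1 gene for 34945, several for 932 and none for 9160. Symbols were updated by gene identifier through a RefSeq table of GRCm38.p6, which matched 34741 of the 34945.

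Arrays were scaled to 1 trimmed mean, values under the 40th percentile (54) were set to it, and signals were put on the log2 scale. A gene was represented by its probe set of highest average log2 signal, and was called at 2-fold if the higher of the 2 signals exceeded the floor. Folds against a signal at the floor are lower bounds, written with the words at least. The error of a log2 ratio came from 44409 pairs of probe sets of 1 gene, above the floor on all arrays, that share arrays and probe sets. Values were computed in Python 3.11.15 with pandas 2.3.3. The calls were also run on simulated data with changes wider than 2-fold planted in genes well above the floor. That run checked the code only: it measured neither false calls nor changes near 2-fold, and left out the spread between cultures. The number of arrays limits the precision.

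The members and lists were chosen with earlier results of these data known. From each list the text names the 3 genes with the widest ratio in day 2 over day 0, besides all 10 members, the nearest genes and markers. Itga5, Timp1 and the collagen IV chains outside the 10 were named in addition. Alternatives were 2 other floors, a pseudocount of 32, quantile normalization, values as deposited, means over probe sets, specific probe sets only and a 3-fold threshold.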

Additional observations from a re-analysis of the deposited data

How the results depend on the processing

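With 1 array per day, no replicate could be left out. No paired analysis was possible because the labels give no replicate numbers and each day has 1 array. The counts of members at least 2-fold higher or lower stayed within 1.5 times their value under the floors at the 25th and 60th percentile, the pseudocount, quantile normalization, the values as deposited, means over probe sets and specific probe sets only. With a 3-fold threshold, 0 members were higher in day 2 over day 1, against 3 at 2-fold, since Col4a1, Col4a2 and Nid1 lay between 2-fold and 3-fold. The medians of the members moved by less than the error of 0.36, and no called member changed sign under any alternative. With means over probe sets, Hspg2 passed 2-fold on both days (log2 ratios 1.21 and 1.14), which made 4 members higher on day 1 and 5 on day 2. In day 2 over day 1 the same setting took Nid1 under 2-fold (0.996) and Sparc past it (1.06), so the count of 3 held a different member. Col18a1 in day 2 over day 0 ranged in log2 ratio from -4.62 with specific probe sets only to -3.57 with the pseudocount. Nid2 was left out of that alternative because its only probe set carries the suffix _a_at, which was dropped along with _s_at and _x_at. Signals near the floor, such as those of Col4a5 and the dim Fbln1 and Agrn probe sets, limit what could be seen.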

Other observations

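Proteases and their inhibitors, which remodel the matrix, were read in the same way. Of 16 compared, 8 passed 2-fold upwards and 2 downwards in day 2 over day 0 (median log2 ratio 1.13). The shares over all genes were 11% higher and 10.1% lower, so the count of lower genes is near background. The metalloprotease inhibitors Timp2 and Timp3 had the widest ratios of this list. The related inhibitor Timp1 read 1132, 1776 and 1259 on days 0, 1 and 2, with a log2 ratio of 0.15 in day 2 over day 0. Timp2 read 140, 268 and 1788 on days 0, 1 and 2, 12.7-fold higher on day 2 than on day 0. Timp3 read 122, 35.4 and 778, 6.41-fold higher on day 2 than on day 0, although it was below the floor on day 1. Plat, which encodes tissue plasminogen activator and is a parietal endoderm marker, read 71.0, 138 and 439.

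Of 13 other heparan and chondroitin sulfate proteoglycans compared, 4 were higher and 1 was lower in day 2 over day 0 (median 0.45). With 11% higher and 10.1% lower over all genes, the count of lower genes is again near background. The glypicans Gpc6 and Gpc3, cell surface proteoglycans, were 8.20-fold and 4.43-fold higher on day 2 than on day 0. Gpc6 read 81.7, 55.4 and 670.3 and Gpc3 read 391, 293 and 1734 on days 0, 1 and 2, so both were at their highest on day 2 and neither was higher on day 1 than on day 0. The proteoglycan Srgn, a granule and secretory protein, was at least 448-fold higher on day 2.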
